A study of Mus musculus with 2 samples.

Results

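The cells described here are olfactory epithelium cells chosen by Tex15, together with the smaller set among them that also carried Lhx2. A barcode was a Tex15 cell when it had at least 5000 UMIs (unique molecular identifiers, each counting 1 captured RNA molecule), at least 500 genes, at most 10% mitochondrial UMIs, 2 or more Tex15 UMIs, fewer than 5 UMIs of Top2a and Mki67 together and Omp below 0.1% of UMIs. The rule found 281 cells among 2954 past the quality limits, 204 of 1816 in the library of an OR1A1 transgenic mouse and 77 of 1138 in that of a wild-type mouse. Because these values chose the cells, Tex15, Top2a, Mki67, Omp and depth are given only as descriptions.

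The study profiled dissociated olfactory epithelium with droplet 3′ libraries to follow odorant receptor expression in neurons and their precursors. The transgenic mouse was a 9-week-old female of genotype Tg(Or8a1-OR1A1,-MAPT/mCherry)D736Feins/+, labelled 5x21 OR1A1 beta; by its name the transgene joins Or8a1 control sequence to the receptor OR1A1 and to MAPT/mCherry. It is a single transgenic line. The wild-type mouse was an 8-week-old female from a cross of 10G4-V2.2-#7/Jax with Bl6/129SF1/J. With 1 library per genotype no difference between genotypes can be tested, and genotype, strain, age and library cannot be told apart.

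Olfactory sensory neurons arise from globose basal cells through Neurog1- and Neurod1-expressing immediate neuronal precursors (INPs), become immature neurons marked by Gap43, and mature into neurons with Omp. Each mature neuron expresses a single odorant receptor allele chosen from a very large gene family. Choice depends on enhancers bound by Lhx2, Ebf factors and the adaptor Ldb1, on heterochromatin over the other receptor genes, and on the demethylase Lsd1 (gene Kdm1a). Receptor protein then triggers an unfolded protein response through Perk and Atf5 that ends the choice. Immature neurons are known to hold low levels of many receptors before one dominates. Tex15 itself is best known from male germ cells, where it acts in the silencing of transposons guided by piRNAs.

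The Tex15 cells were not a single cell type, and fewer than the rule's total fitted the label of early neurons. Lhx2 split them sharply. In the transgenic library 72 had no Lhx2 UMI, 20 had 1 or 2, 10 had 3 to 11 and 102 had 12 or more. In the wild type the same counts were 51, 7, 0 and 19. The cells below 3 Lhx2 UMIs, 92 transgenic and 58 wild type, were deep, with a median of 32799 and 32103 UMIs. Their Tex15 counts were low, and 42 of the 92 and 32 of the 58 had only 2 or 3 Tex15 UMIs, and 1 in each library had 20 or more. When each cell was thinned at random to 5000 UMIs, 17.4% and 15.5% of them kept 2 Tex15 UMIs.

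By the marker list with the largest share of their UMIs, 58 of the 92 transgenic cells below 3 Lhx2 UMIs were led by sustentacular genes, 16 by horizontal basal genes and 7 by Bowman gland and secretory genes. In the wild type 13 of 58 were led by sustentacular, 8 by horizontal basal and 14 by Bowman gland and secretory genes. The 4 remaining transgenic lists with a member led 1 or 2 cells each. In 6 and 14 cells no list reached 0.2% of UMIs. Tex15 was also summed over all cells led by a list, without mature neurons and Tex15 cells with 3 or more Lhx2 UMIs. Per 1000000 UMIs it was at 152 and 78.9 in sustentacular-led cells, 39.9 and 61.2 in Bowman gland and secretory ones and 31.2 and 33.3 in horizontal basal ones. In fibroblast-led cells it was at 2.69 and 6.95. Summed over the transgenic cells below 3 Lhx2 UMIs, the 7 sustentacular genes reached 13580 counts per 1000000 UMIs (CPM). Taken over the whole rule, the genes highest against INPs were therefore those of gland and supporting cells: the odorant-binding protein Obp1a was at 24584 CPM in transgenic Tex15 cells and 35.5 CPM in INPs, and Mup5, a lipocalin, was at 9421 against 2.22 CPM. In all, 1565 of 6680 measured genes were at least 2-fold higher in the whole set than in INPs (23.4%) and 833 were lower (12.5%). Against Gap43-high cells 1344 of 7797 were higher (17.2%) and 1976 lower (25.3%).

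Another kind of cell carried Lhx2 together with supporting cell RNA. These 12 transgenic and 3 wild-type cells gave at least 0.447% and 0.907% of UMIs to the sustentacular genes, and their median depths were 51836 and 45545 UMIs. Tex15 ranged from 2 to 184 UMIs in the transgenic cells and from 22 to 179 in the wild type. Of them, 6 and 1 were among the 5% of cells with the highest Scrublet doublet scores in their library. They were kept apart from what follows.

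The remaining cells, with 3 or more Lhx2 UMIs and under 0.2% sustentacular UMIs, are called Tex15 Lhx2 cells. There were 100 in the transgenic library (49.0% of its Tex15 cells, exact binomial interval 41.97 to 56.1%) and 16 in the wild type (20.8%, 12.4 to 31.5%). Both limits were set after the values were seen, so Lhx2 and the sustentacular genes are no finding in them. Their sustentacular share reached at most 0.098% and 0.0313%, which left a gap below the set-aside cells. No barcode was shared between the Tex15 cells of the libraries, and 1 was shared among all cells past the quality limits.

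**Figure D1:**
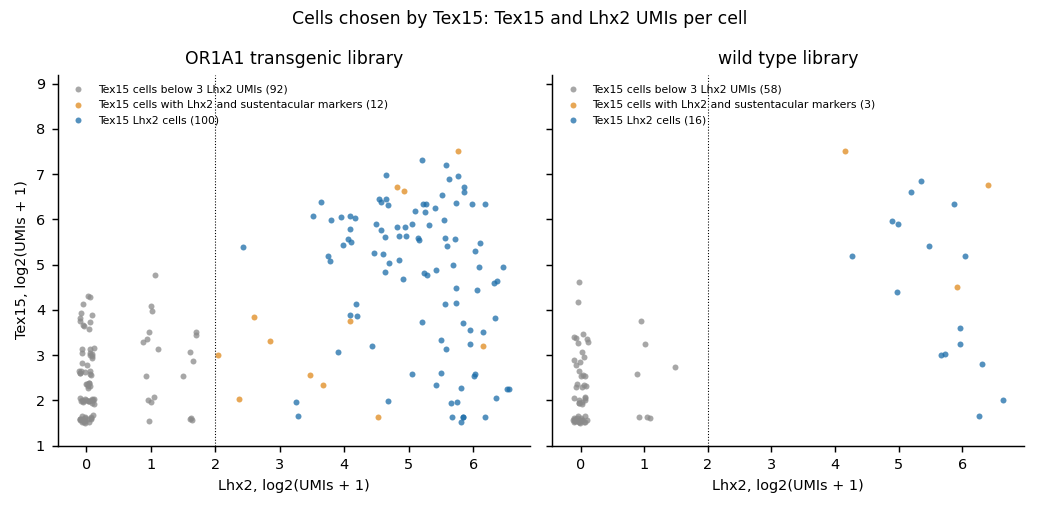
Each point is 1 Tex15 cell, with log2(UMIs + 1) of Lhx2 on the x axis and of Tex15 on the y axis, slightly jittered, for the transgenic (left) and wild-type library (right). Colours separate the 100 and 16 Tex15 Lhx2 cells, the 12 and 3 cells with sustentacular markers and the 92 and 58 cells below 3 Lhx2 UMIs, and the dotted line marks 3 Lhx2 UMIs. The high Tex15 counts lie almost wholly right of that line.

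Within the Tex15 Lhx2 cells Tex15 ranged from 2 to 152 UMIs in the transgenic library (median 36.5) and from 2 to 110 in the wild type (median 27.0). Lhx2 ranged from 4 to 89 UMIs (median 37.0) and from 17 to 95 (median 49.5). The summed Tex15 level of the class was 2866 and 2096 CPM. It was at 17.7 and 0 CPM in INPs, 4.02 and 6.52 CPM in Gap43-high cells and 0.943 and 0.766 CPM in mature neurons, the first 2 classes being limited to fewer than 2 Tex15 UMIs per cell by definition. Just outside the Tex15 limit lay 21 transgenic and 6 wild-type Lhx2 cells with 1 Tex15 UMI, and just inside it 6 and 1 with exactly 2. A further 18 and 9 cells with Lhx2 and Tex15 were over the Omp limit, and 7 and 1 over the cycling limit.

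The depth of the Tex15 Lhx2 cells was a median of 14304 UMIs and 4138 genes per transgenic cell and 18404 UMIs and 4693 genes per wild-type cell. INPs (Neurod1 at 5 or more UMIs, Tex15 below 2) numbered 27 and 5, with medians of 16060 and 18704 UMIs. Gap43-high cells (Gap43 at 0.1% or more of UMIs, Tex15 below 2) numbered 125 and 31, with medians of 16335 and 14925 UMIs. The wild-type INP class sums only 88059 UMIs, so its values are coarse. Of the cells in these 3 classes and of mature neurons, Tex15 Lhx2 cells were 9.51% in the transgenic library (7.80 to 11.4%) and 2.94% in the wild type (1.69 to 4.72%). INPs were 2.57% and 0.917%, and Gap43-high cells 11.9% and 5.69%, so all 3 early classes took the larger share in the transgenic library. The part of dissection and cell recovery in these shares was not tested.

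Most Tex15 Lhx2 cells passed neither the Neurod1 nor the Gap43 limit of the reference classes. In the transgenic library 24 passed the Neurod1 limit of INPs, 7 passed the Gap43 limit and 69 passed neither; in the wild type the counts were 6, 0 and 10. Tex15 was lowest in the first of these, with a median of 6.5 UMIs in both libraries. It was highest in the cells that passed neither limit, with medians of 47.0 and 50 UMIs. Of the 112277 UMIs of the 7 transgenic cells past the Gap43 limit, 29597 came from 1 cell. That cell had 2 Tex15 and 8 Lhx2 UMIs and held 71 UMIs of the vomeronasal receptor Vmn2r70. It was also among the 5% of cells with the highest Scrublet scores, so summed levels of these 7 cells lean on it.

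Transcription factors of receptor choice were the first group examined. Rcor1, which encodes the CoREST corepressor partner of Lsd1, stood out. Its level was 999 CPM in transgenic Tex15 Lhx2 cells, against 64.3 CPM in INPs and 140 CPM in Gap43-high cells. The wild-type Tex15 Lhx2 cells had 204 Rcor1 UMIs among 277158, while wild-type INPs were at 56.8 CPM and Gap43-high cells at 133 CPM. The log2 ratio to INPs was 3.91 (95% counting interval 3.43 to 4.54) in the transgenic library and 3.44 (2.45 to 5.33) in the wild type. The log2 ratio to Gap43-high cells was 2.83 (2.65 to 3.03) and 2.46 (2.05 to 2.91). Rcor1 was found in 93 of 100 and 15 of 16 cells. It thus peaked in the Tex15 Lhx2 cells in both libraries.

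The rise lay between the Neurod1-high cells and the rest. Rcor1 was at 203 and 79.6 CPM in Tex15 Lhx2 cells past the Neurod1 limit, and at 1325 and 1189 CPM in those past neither limit. In the 7 transgenic cells past the Gap43 limit, the Vmn2r70 cell included, it was at 1229 CPM. In mature neurons it was at 66.0 and 53.8 CPM. Kdm1a, its catalytic partner, did not follow it: Kdm1a was at 367 and 566 CPM in Tex15 Lhx2 cells, 412 and 863 CPM in INPs and 261 and 317 CPM in Gap43-high cells, less than 2-fold from both classes in both libraries.

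Ebf1, an activator of receptor enhancers and promoters, was at 2907 and 3258 CPM, against 1058 and 1204 CPM in INPs, a log2 ratio of 1.46 (1.32 to 1.60) and 1.42 (1.14 to 1.74). Against Gap43-high cells, at 1689 and 2612 CPM, Ebf1 was less than 2-fold higher. Ebf3 was at 1133 and 1108 CPM, against 486 and 738 CPM in INPs and 490 and 620 CPM in Gap43-high cells. Ldb1 was at 264 and 336 CPM, against 142 and 193 CPM in INPs and 106 and 157 CPM in Gap43-high cells. Lhx2, a marker of the cells' choice, fell in the other direction, from 3490 and 2884 CPM in INPs to 617 and 787 CPM in Gap43-high cells. Of the 8 measured genes of the list of receptor-choice factors, 3 were at least 2-fold higher than in transgenic INPs, 2 of them in both libraries, and 0 were lower. Over all 4609 genes measured against transgenic INPs 12.7% were higher and 3.56% lower, and in both libraries 5.41% and 1.70% of 4106. The list's median log2 ratio, with Lhx2 included, was 0.96, beside 0.09 over all genes.

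Against Gap43-high cells 5 of 9 measured receptor-choice factors were at least 2-fold higher, 3 of them in both libraries, and 1 (Ebf4) was lower in both. Lhx2 is 1 of these 5 and is a gene of the choice. The background was 6.12% higher and 16.2% lower of 6450 genes in the transgenic library, and 4.17% higher and 10.3% lower of 6120 in both. The list's median log2 ratio was 1.21, beside -0.21 over all genes, and this median also includes Lhx2. Few genes went opposite ways in the 2 libraries, 8 against INPs (0.195%) and 5 against Gap43-high cells (0.0817%).

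Smchd1 was the heterochromatin gene that differed most. It encodes a structural chromosome protein known from silencing of the inactive X and of clustered genes. It was at 1655 and 1281 CPM in Tex15 Lhx2 cells and at 1386 and 1022 CPM in INPs, less than 2-fold apart. In Gap43-high cells it was at 142 and 78.3 CPM, a log2 ratio of 3.54 (3.37 to 3.73) and 4.0 (3.54 to 4.57). The 7 transgenic Tex15 Lhx2 cells past the Gap43 limit had 240 CPM, while those past neither limit had 1763 CPM. The first value includes the Vmn2r70 cell, with 29597 of the 112277 UMIs. Among INPs, Tex15 Lhx2 cells and Gap43-high cells, Smchd1 was thus high where Gap43 was low and low where Gap43 was high. Mature neurons are not part of this statement, and within the Tex15 Lhx2 cells it rests on 7 transgenic cells.

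The other heterochromatin genes moved little. Of 12 measured against Gap43-high cells only Smchd1 passed 2-fold, where 6.12% of all genes were higher and 16.2% lower in the transgenic library. Of 11 measured against INPs 0 did in the transgenic library, where 12.7% of all genes were higher and 3.56% lower. The HP1 genes Cbx1, Cbx3 and Cbx5 were at 497, 462 and 52.8 CPM in transgenic Tex15 Lhx2 cells, the H3K9 methyltransferase genes Ehmt1 and Setdb1 at 88.4 and 55.5 CPM. Lbr, a nuclear envelope receptor that holds heterochromatin at the periphery, had UMIs in 27 of 100 and 6 of 16 cells and reached the minimum for measurement (20 CPM with 50 UMIs, in the wild type with 10) in the wild-type library alone, at 36.1 CPM against 45.4 CPM in INPs and 21.7 CPM in Gap43-high cells.

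Tex15's germ cell partners were not found at comparable counts. Spocd1, Piwil1, Mael, Tdrd1, Tdrd9, Dnmt3l and Mov10l1 had 0 UMIs among the 1459371 UMIs of the transgenic Tex15 Lhx2 cells and among the 277158 of the wild type. Piwil2 and Piwil4 had 1 UMI each in transgenic cells and 0 in wild-type cells. The maintenance DNA methyltransferase Dnmt1 was at 80.2 and 64.9 CPM, against 19.96 and 22.7 CPM in INPs, and the de novo enzyme Dnmt3a at 108 and 134 CPM, against 44.4 and 68.1 CPM in INPs. Of 4 measured genes of that list 2 were at least 2-fold higher than in transgenic INPs (12.7% of all genes), 1 of them in both libraries (5.41%). From transgenic Gap43-high cells 0 differed 2-fold, where 6.12% of all genes were higher and 16.2% lower.

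Several precursor genes were lower than in INPs and still higher than in Gap43-high cells, while others on the list were not. Elavl4, an RNA-binding protein of new neurons, was at 1388 and 1808 CPM, against 3477 and 3112 CPM in INPs and 200 and 254 CPM in Gap43-high cells. Sox11, a factor of differentiating neurons, was at 5599 and 6711 CPM, against 7899 and 7495 CPM in INPs and 2169 and 2264 CPM in Gap43-high cells. Both of these genes were ordered the same way in both libraries.

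St18, a zinc-finger factor, was at 28.8 and 90.2 CPM, against 202 and 193 CPM in INPs, with 0 UMIs in the Gap43-high cells of both libraries. Lmo1 went the other way, at 200 and 274 CPM against 48.8 and 22.7 CPM in INPs and 22.6 and 50.02 CPM in Gap43-high cells. Hdac2, a histone deacetylase of the CoREST complex, was at 709 and 487 CPM, against 304 and 261 CPM in INPs and 310 and 274 CPM in Gap43-high cells. Of the 13 measured precursor factors 4 were at least 2-fold higher and 5 lower than in transgenic INPs (12.7% and 3.56% of all genes), and 2 and 4 in both libraries (5.41% and 1.70%). Of 12 measured against Gap43-high cells 7 were higher and 2 lower in the transgenic library (6.12% and 16.2% of all genes). In both libraries 6 were higher and 1 was lower (4.17% and 10.3%).

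Neurog1 and Mfng lay between INPs and Gap43-high cells in both libraries. Neurog1 was at 47.3 and 72.2 CPM, against 120 and 90.8 CPM in INPs and 3.01 and 0 CPM in Gap43-high cells. Mfng, a glycosyltransferase that tunes Notch signalling, was at 58.2 and 119 CPM, against 328 and 329 CPM in INPs and 3.52 and 2.17 CPM in Gap43-high cells. Within the Tex15 Lhx2 cells it was at 169 and 265 CPM past the Neurod1 limit and at 13.9 and 18.3 CPM past neither limit. Of the 6 measured proneural genes other than Neurod1, 2 were at least 2-fold lower than in transgenic INPs (3.56% of all genes), none in both libraries (1.70%). Against Gap43-high cells 4 were higher and 1 (Insm1) lower in both libraries (4.17% and 10.3% of all genes).

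**Figure D2:**
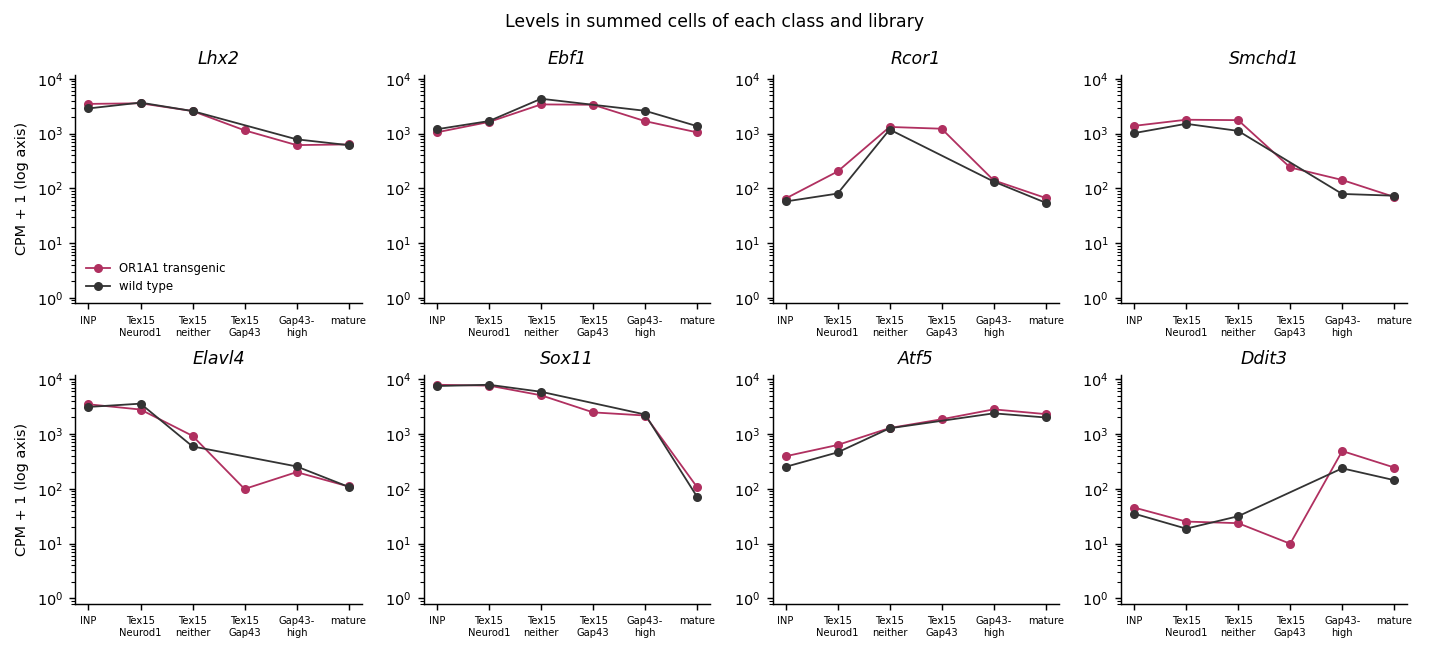
Each panel plots 1 gene's level as CPM + 1 on a log axis over the summed cells of each class, from INP through the Tex15 Lhx2 cells past the Neurod1 limit, past neither limit and past the Gap43 limit to Gap43-high and mature cells. Lines join classes of the transgenic (red) and wild-type library (dark), and no wild-type Tex15 Lhx2 cell passed the Gap43 limit. Of the 112277 UMIs of the transgenic cells past that limit, 29597 came from the Vmn2r70 cell. Rcor1 peaks in the middle classes at 1325 and 1189 CPM, Smchd1 drops between the cells past neither limit and Gap43-high cells, and Ddit3 is high only from Gap43-high cells on.

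The unfolded protein response genes were low. Ddit3, the stress factor Chop, was at 21.9 and 25.3 CPM, against 487 and 235 CPM in Gap43-high cells, a log2 ratio of -4.43 (-5.03 to -3.97) and -3.04 (-4.57 to -2.13). Trib3, a pseudokinase induced by Ddit3, was at 2.74 and 10.8 CPM, against 91.9 and 69.6 CPM. Ppp1r15a, the phosphatase subunit Gadd34, was at 35.6 and 36.1 CPM, against 388 and 161 CPM. All 9 measured genes of the list were at least 2-fold lower than in transgenic Gap43-high cells, and 8 of them in both libraries, where the background was 16.2% and 10.3%.

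Atf5, the factor translated in that response to a chosen receptor, was also below its Gap43-high level but above that of INPs. It was at 1140 and 938 CPM, against 390 and 250 CPM in INPs, a log2 ratio of 1.54 (1.32 to 1.78) and 1.85 (1.28 to 2.61), and against 2810 and 2377 CPM in Gap43-high cells. Its messenger RNA was thus past 2-fold higher than in INPs in both libraries, in cells where Ddit3 lay below its INP level of 44.4 and 34.1 CPM. Of the 5 genes of the list measured against transgenic INPs Atf5 alone was 2-fold higher and 0 were lower (12.7% and 3.56% of all genes). Ddit3 had too few UMIs to count as measured.

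Genes of odorant transduction and transport were below their Gap43-high levels. Gnal, the olfactory G protein subunit, was at 127 and 79.4 CPM, against 503 and 544 CPM in Gap43-high and 2988 and 3446 CPM in mature cells. Rtp1, which carries receptors to the membrane, was at 28.8 and 28.9 CPM, against 151 and 174 CPM in Gap43-high cells. Gng13, a G protein gamma subunit, was at 369 and 289 CPM, above the 77.6 and 90.8 CPM of INPs and below the 1043 and 750 CPM of Gap43-high cells. Of 9 measured mature neuron genes other than Omp, 7 were at least 2-fold lower than in Gap43-high cells in both libraries (10.3% of all genes). Adcy3, the olfactory adenylyl cyclase, was at 45.9 and 28.9 CPM against 47.7 and 52.2 CPM in Gap43-high cells, less than 2-fold apart.

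Immature neuron genes other than Gap43 differed among themselves. Gng8 was at 955 and 1017 CPM, against 856 and 715 CPM in INPs and 1119 and 1046 CPM in Gap43-high cells. Dpysl3, a collapsin response protein of growing axons, was at 1092 and 1144 CPM, against 1323 and 1379 CPM in Gap43-high cells. Calb2, which encodes calretinin, was at 134 and 46.9 CPM, against 1859 and 1724 CPM in Gap43-high cells. Of the 13 measured genes 4 were at least 2-fold lower than in transgenic Gap43-high cells, 3 of them in both libraries, and 0 were higher. Over all genes 16.2% and 10.3% were lower, and the list's median log2 ratio was -0.33 beside -0.21.

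Guidance genes differed among themselves. Cxcr4, a chemokine receptor, was at 153 and 155 CPM, against 3.52 and 10.9 CPM in Gap43-high cells, a log2 ratio of 5.26 (4.38 to 6.77) and 3.6 (2.50 to 5.53). Nrp1, a semaphorin receptor, was at 134 and 39.7 CPM, against 11.1 and 0 CPM in INPs and 188 and 107 CPM in Gap43-high cells. Plxna4 was at 13.0 and 0 CPM, against 77.8 and 65.2 CPM in Gap43-high cells. Of 12 measured against Gap43-high cells 3 were higher and 4 lower in the transgenic library (6.12% and 16.2% of all genes). In both libraries 1 was higher and 2 were lower (4.17% and 10.3%). With 12 genes these shares are coarse. Of 6 measured against INPs 3 were higher (12.7% of all genes), 2 of them in both libraries (5.41%).

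Among the genes with the largest ratios above INPs, Homer2, a postsynaptic scaffold, was at 728 and 732 CPM, against 15.5 and 56.8 CPM. Ssbp2, a single-stranded DNA-binding protein that partners Ldb1, was at 933 and 924 CPM, against 35.5 and 102 CPM, and at 292 and 294 CPM in Gap43-high cells. Tesc, a calcium-binding protein, was at 391 and 361 CPM, against 17.7 and 11.4 CPM. Ncam2, an adhesion molecule, was at 108 and 57.7 CPM, against 2.22 and 0 CPM. Ablim1 had 153 UMIs in transgenic Tex15 Lhx2 cells and 0 in INPs, at least 15.8-fold higher against a floor of 3 UMIs over the class. Gucy2c, a receptor guanylate cyclase, had 75 and 0 UMIs, at least 7.72-fold higher, and was at 0.502 and 2.17 CPM in Gap43-high cells. Ssbp2 and Gucy2c were thus high against both reference classes, and Tub, Calb2, Cldn23 and Dzip1l completed the list.

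Among the genes with the largest ratios below INPs, Ube2c, a mitotic ubiquitin enzyme, was at 2.74 and 7.22 CPM, against 118 and 148 CPM. The growth factor gene Mdk was at 11.6 and 32.5 CPM, against 233 and 250 CPM. Id1 and Id3, inhibitors of proneural factors, were at 56.9 and 30.8 CPM in the transgenic and 155 and 68.6 CPM in the wild type, against 490 and 275 CPM and 806 and 318 CPM in INPs. The retinoid-binding Crabp2, Tex14, Ada and St18 were also among the lowest.

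The largest ratios above Gap43-high cells were led by Grp, gastrin-releasing peptide, at 549 and 750 CPM, against 4.02 and 26.1 CPM. In INPs Grp was at 692 and 522 CPM. The retinoid-binding protein Crabp1 was at 4008 and 2666 CPM, against 61.3 and 115 CPM in Gap43-high cells and 1040 and 1340 CPM in INPs. Crabp1 was found in 99 of 100 and 16 of 16 cells. Stil, a centriole gene, was at 108 and 224 CPM, against 2.01 and 8.70 CPM, and Ppp1r14a at 171 and 271 CPM, against 1.51 and 2.17 CPM. Most of these genes were also present in INPs, while Crabp1 and Lypd1 (64.4 and 46.9 CPM, against 6.65 and 22.7 CPM in INPs) were higher in the Tex15 Lhx2 cells than in INPs of the 2 libraries. Cxcr4, Sult6b1 and the agouti gene (symbol a) were also among the highest.

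Among the genes with the largest ratios below Gap43-high cells, Brdt, a bromodomain gene known from germ cells, was at 2.06 and 3.61 CPM, against 112 and 161 CPM. Mef2b, a transcription factor, was at 6.85 and 3.61 CPM, against 401 and 254 CPM. Sesn2 had 0 UMIs in transgenic Tex15 Lhx2 cells, at least 13.2-fold lower than in Gap43-high cells. The amino acid transporter Slc7a5 was at 2.06 and 3.61 CPM, against 63.8 and 76.1 CPM, and Cth, of cysteine synthesis, at 1.37 and 3.61 CPM, against 44.2 and 30.4 CPM. Stk32a, Trib3, Tmem268 and Abhd3 were also among the lowest.

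Markers of other cell types were present at low summed levels in the Tex15 Lhx2 cells. The 7 sustentacular genes, which the choice of the cells limits, summed to 114 and 28.9 CPM, beside 53.2 and 68.1 CPM in INPs and 69.3 and 23.9 CPM in Gap43-high cells. The 7 Bowman gland and secretory genes summed to 107 and 155 CPM, beside 95.4 and 114 CPM in INPs. The 5 lymphocyte genes were at 0 in both libraries and the 5 horizontal basal genes at 4.80 and 0 CPM. The 5 neutrophil genes summed to 6.85 and 68.6 CPM, beside 2.22 and 34.1 CPM in INPs and 43.2 and 60.9 CPM in Gap43-high cells. Still, 71 of 100 and 12 of 16 cells had 3 or more UMIs over the non-neuronal lists other than erythroid, as had 13 of 27 and 4 of 5 INPs and 80 of 125 and 20 of 31 Gap43-high cells. Their part in the ratios was not tested beyond the counts without those cells, which stand with the other settings.

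Odorant receptors were the readout the study was built on, and the Tex15 Lhx2 cells held many of them at low counts. Counting 1105 receptor features (1 symbol occurs on 2 of them, and 34 pseudogenes are left out), transgenic Tex15 Lhx2 cells had a mean of 6.97 ± 7.66 receptors with at least 1 UMI (SD over 100 cells) and wild-type cells 9.88 ± 12.7 (16 cells). The median was lower, at 3.5 and 1.5, and the highest cells had 30 and 32. Thinned to 5000 UMIs per cell, the means were 2.92 ± 3.55 and 3.44 ± 4.41. No cell was left out by thinning.

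The means of both neighbouring classes were lower. INPs had a thinned mean of 0.333 and 0.2 receptors, Gap43-high cells 1.45 and 1.39, and mature neurons 1.14 and 1.32. The thinned median was 1 in Tex15 Lhx2 and in Gap43-high cells of both libraries, and at least 1 receptor was found in 87 of 100 and 12 of 16 Tex15 Lhx2 cells, against 121 of 125 and 28 of 31 Gap43-high cells. The higher means thus came from a minority of cells with many receptors. Macrophage-type cells, which should lack receptors, had 0.322 and 0.629, and fibroblast-type cells 0.457 and 0.453. The transgenic fibroblast-type class included cells with neuronal RNA, so it is not a clean background. Single cells in it reached 97 Neurod1 UMIs, 188 Omp UMIs and 496 UMIs of 1 receptor. Near-empty barcodes with fewer than 100 UMIs gave 1219 and 1109 receptor UMIs per 1000000, more than the 577 and 682 CPM of the Tex15 Lhx2 cells. Receptor RNA was thus present outside cells, and the means of INPs, macrophage-type and fibroblast-type cells, from 0.2 to 0.629, show how many receptors cells of those classes had in the same libraries at the same depth. A count of 10 or more receptors was reached by 27 of 100 transgenic cells (18.6 to 36.8%) and 6 of 16 wild-type cells (15.2 to 64.6%). With a receptor counted from 2 UMIs on, 0% of the Tex15 Lhx2 cells of both libraries reached it, so this count rests on receptors at 1 UMI. In INPs 0 of 27 and 0 of 5 cells reached it, in Gap43-high cells 2 of 125 and 0 of 31, and in mature neurons 0 of 800 and 0 of 493. In all, 1 of 127 transgenic fibroblast-type cells did.

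**Figure D3:**
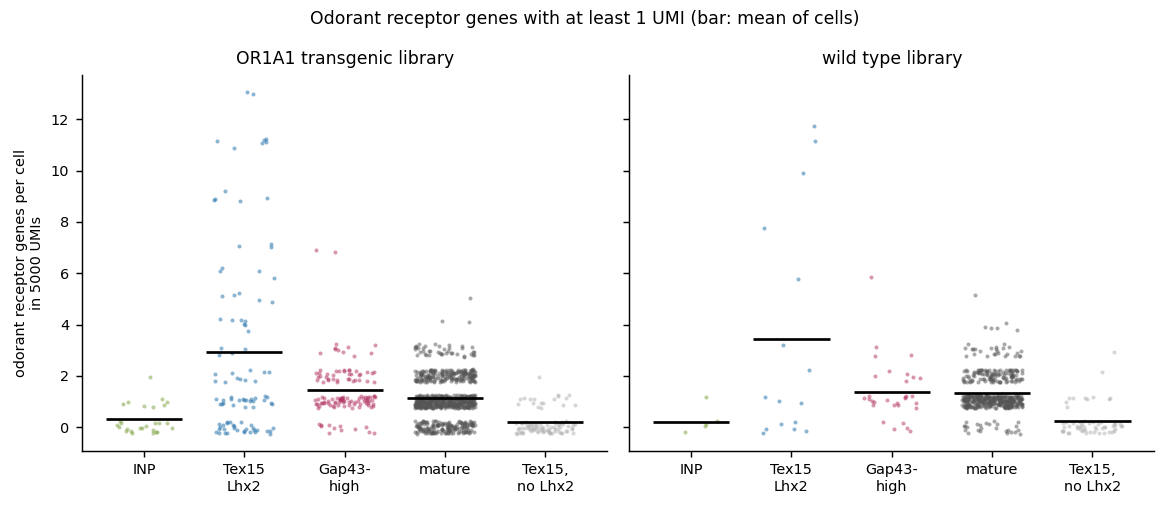
Points are single cells and the y axis is the number of odorant receptor genes with at least 1 UMI after thinning each cell to 5000 UMIs, jittered, for 5 classes of the transgenic (left) and wild-type library (right), and bars mark class means. The Tex15 Lhx2 cells have means of 2.92 and 3.44 and reach 13 and 12 receptors, while most cells of the other classes lie at 0 to 3.

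In cells with enough receptor UMIs to compare, the leading receptor took a small share of them in most. In the 34 transgenic cells with 10 or more receptor UMIs the leading receptor gave a median of 13.4% of them (6.06 to 57.1%), and in the 6 wild-type cells 9.60% (5.71 to 25%). In Gap43-high cells the same median was 98.4% and 98.5% (100 and 21 cells), and in mature neurons 99.1% and 99.3%. A receptor at 3 or more UMIs was found in 16 of 100 and 5 of 16 Tex15 Lhx2 cells, against 105 of 125 and 23 of 31 Gap43-high cells. The highest count of a single receptor in a Tex15 Lhx2 cell was 12 and 4 UMIs, against 826 and 361 in a Gap43-high cell. In the transgenic library 85.9% of the detections were at 1 UMI.

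Single cells show the pattern. One transgenic cell with 67 Tex15 and 15 Lhx2 UMIs had 30 receptors among 35 receptor UMIs, with at most 3 UMIs for any receptor. Another, with 78 Tex15 UMIs, had 30 receptors among 41 UMIs. The wild-type cell with the most, at 93 Tex15 UMIs, had 32 receptors among 35 UMIs and none above 2. Neurod1 was at 0 UMIs in all 3 of these cells.

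The receptors were unevenly spread among the cells, and their number varied with Tex15, Lhx2, Neurod1 and Gap43. Tex15 and Lhx2 chose the cells, so their values here are descriptions only. The 24 transgenic cells past the Neurod1 limit had a thinned mean of 0.500 receptors, the 69 past neither limit 3.70 and the 7 past the Gap43 limit 3.57. In the wild type the 6 cells past the Neurod1 limit had 0.167 and the 10 past neither 5.40. By Tex15, transgenic cells with 2 to 9 UMIs had 1.08, with 10 to 39 UMIs 1.97 and with 40 or more 4.50 (24, 30 and 46 cells). In the wild type these means were 0.167, 3.50 and 6.67 (6, 4 and 6 cells). The Tex15 groups were not separate from the Neurod1 split. Median Neurod1 was 8.5 and 7.5 UMIs at 2 to 9 Tex15 UMIs, and 0 in both libraries at 40 or more. Cells past the Neurod1 limit thus had means of 0.500 and 0.167, beside 0.322 and 0.629 in macrophage-type cells. The high receptor numbers were in cells below the Neurod1 limit.

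Across cells, Spearman's rho of the thinned receptor number was 0.38 and 0.88 with Tex15 UMIs, -0.58 and -0.62 with Lhx2, -0.50 and -0.81 with Neurod1, 0.47 and 0.75 with the Gap43 share and -0.15 and -0.14 with depth (100 and 16 cells). The cells of each library share 1 animal and 1 preparation, and these values are a description. High Tex15 did not always come with receptors: 1 transgenic cell with 100 Tex15 UMIs had 1 receptor.

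**Figure D4:**
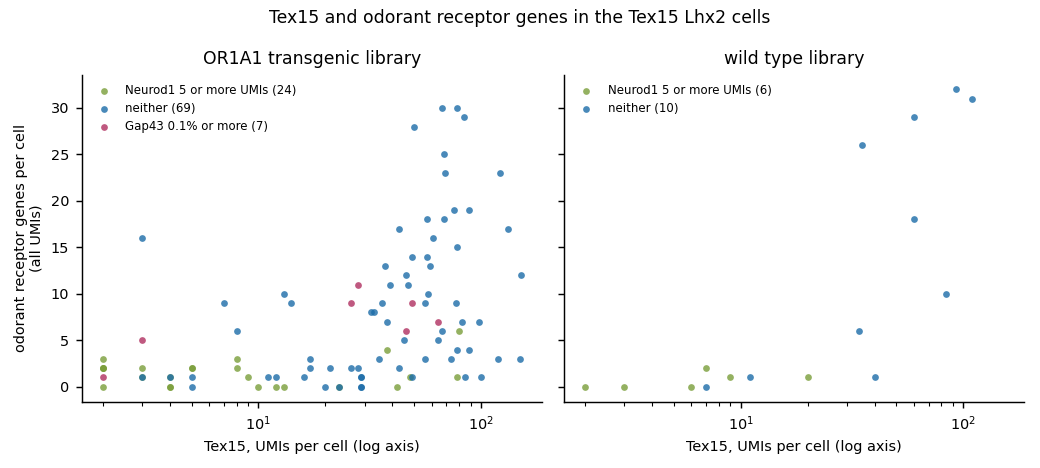
Each point is 1 Tex15 Lhx2 cell, with its Tex15 UMIs on a log x axis and its odorant receptor genes with at least 1 UMI on the y axis, not thinned, for the transgenic (left) and wild-type library (right). Colours mark the 24 and 6 cells past the Neurod1 limit, the 69 and 10 past neither limit and the 7 transgenic cells past the Gap43 limit. Cells with 10 or more receptors are nearly all past neither limit and rise to 30 and 32 receptors.

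The receptors themselves were diverse. Over all Tex15 Lhx2 cells 398 receptors were detected in the transgenic library, 136 in that of the wild type and 440 in either. The 94 found in both were 23.6% of the transgenic and 69.1% of the wild-type list. Of the 398, 242 were in a single cell and 16 in 5 or more. Olfr482 was in the most transgenic cells, 14 of 100 (7.87 to 22.4%), and in 4 of 16 wild-type cells. It was also in 11 of 92 transgenic cells below 3 Lhx2 UMIs and in 74 of 800 mature neurons, so its breadth was not particular to these cells. Olfr24 was in 7 of 100 and 5 of 16 cells, against 8 of 800 and 4 of 493 mature neurons. Olfr1388 was in 8 of 100 and 2 of 16 cells, against 11 of 800 and 0 of 493. Olfr655, a class I receptor, was in 8 of 100 and 1 of 16 cells.

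Class I receptors, the fish-like family of a single cluster, gave 3.41% of classed receptor UMIs in transgenic Tex15 Lhx2 cells (2.28 to 4.90%) and 3.72% in the wild type (1.51 to 7.52%). In Gap43-high cells they gave 2.04% (1.76 to 2.36%) and 0.161% (0.0332 to 0.469%). In mature neurons they gave 7.79% (7.58 to 7.99%) and 13.1% (12.8 to 13.4%). Gap43-high and mature values are set by few receptors with many UMIs per cell, and the UMIs of 1 cell are not independent. In RefSeq positions on GRCm38, 1.20% of 4986 transgenic and 1.31% of 1906 wild-type pairs of receptors found together in a cell lay within 200 kb, against 1.16% of all receptor pairs, and the difference was not tested. The cells with 10 or more receptors drew them from a median of 8 and 11 chromosomes.

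Promoter windows from RefSeq on GRCm38.p6 ran from 250 bases before to 50 after the annotated start. They were available for 14 of the 17 receptors that made up the 10 found in most cells of each library. The wild-type 10 reach down to receptors in 2 of 16 cells. Olfr983 and Olfr1157 are such receptors, and were in 2 and 1 of 100 transgenic cells. They were searched for TAATTA, the core of a homeodomain site as Lhx2 binds it, and CCCNNGGG, the core of an Ebf site. Both motifs read the same on either strand, and they do not overlap. TAATTA was in 19.0% of 369 windows of receptors detected in Tex15 Lhx2 cells and in 18.3% of 573 windows of receptors not detected, against 5.29% of all 32851 windows. CCCNNGGG was in 3.25% and 2.97%, against 13.7% of all windows. Detected and undetected receptors hardly differed in either motif. Among the 14 windows 2 held TAATTA and 1 CCCNNGGG. Their surroundings, 30 bases each on the minus strand, are shown because they are the only matches in these 14 windows, with the match in capitals:
Olfr24, chr9:18755722-18755751: tcaaggtactgTAATTAgctcagacaagaa
Olfr1157, chr2:87968420-87968449: aaacttcaactTAATTAtgttacattcaga
Olfr983, chr9:40093675-40093704: tttcgagaaaaCCCTGGGGaagcataggcc
Olfr983, chr9:40093611-40093640: actcattgaggCCCTTGGGtcatattacca

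Olfr482, the most widespread receptor, had neither motif in its window.

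Other chemosensory receptors were nearly absent. Trace amine-associated receptors had 0 UMIs in the Tex15 Lhx2 cells of both libraries, against 76 in transgenic Gap43-high cells. Vomeronasal receptors had 130 and 13 UMIs, 71 of them from Vmn2r70 in 1 transgenic cell. Gnao1, a G protein subunit of vomeronasal and early olfactory neurons, was at 282 and 281 CPM, against 44.4 and 114 CPM in INPs and 494 and 572 CPM in Gap43-high cells.

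The transgene was sparse. The feature 1A1_tg, which counts the OR1A1 transgene, had at least 1 UMI in 15 of 100 transgenic Tex15 Lhx2 cells (8.65 to 23.5%) and in 8 of 92 Tex15 cells below 3 Lhx2 UMIs (3.83 to 16.4%), with intervals that overlapped. The summed levels were 25.4 and 1.83 CPM, and 17 of the 37 UMIs of the Tex15 Lhx2 cells were in 1 cell. In INPs it was in 2 of 27 cells, in Gap43-high cells in 32 of 125 and in fibroblast-type cells, which should lack it, in 15 of 127 (6.76 to 18.7%), where Omp also reached 188 UMIs in a cell. In macrophage-type cells, which should lack it too, it was in 2 of 90 (0.270 to 7.80%), at a median depth of 8737 UMIs. Median depths were 14304 UMIs in Tex15 Lhx2 cells and 32799 in those below 3 Lhx2 UMIs. The share in Tex15 Lhx2 cells lay above that of macrophage-type cells and overlapped that of fibroblast-type cells, and how much of it came from free RNA was not tested. Just 2 cells had 3 or more UMIs, and 1 of them, past the Neurod1 limit, had 17. In the wild type, which does not carry the transgene, 0 of 16 cells had a UMI. The second added feature, 10G4, was in 2 of 100 and 0 of 16 cells.

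Between the libraries most measured genes of the Tex15 Lhx2 cells were less than 2-fold apart. The make-up of the 2 sets was not the same: 24% and 37.5% of cells passed the Neurod1 limit, and 7 and 0 cells the Gap43 limit. Its part in the differences was not tested. Of 5169 measured genes 120 were at least 2-fold higher in the transgenic cells (2.32%) and 234 lower (4.53%), and for 10 and 22 the counting interval lay beyond 2-fold (0.193% and 0.426%). Over the whole rule, where the share of supporting cells differed, 342 of 7073 were higher (4.84%) and 255 lower (3.61%). Each class is 1 library, and these counts cover counting error only.

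Among the higher genes that were spread over cells were 3 histone genes. H1f4 was at 143 and 14.4 CPM (71 of 100 and 3 of 16 cells), H1f2 at 221 and 39.7 CPM and H2ac6 at 74.0 and 3.61 CPM. The log2 ratio of H1f4 was 2.99 (1.93 to 5.19). In Gap43-high cells H1f4 was at 208 and 198 CPM and H1f2 at 198 and 161 CPM, so the gap between the libraries was not seen there. Bfsp2, a lens filament gene, had 84 UMIs in 25 transgenic cells and 0 in the wild type, at least 5.32-fold higher. Apoe was at 109 and 18.0 CPM, and at 115 and 47.8 CPM in Gap43-high cells.

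Some of the others came from 1 cell. Of 293 Coch UMIs 275 were in 1 transgenic cell, of 59 Pam UMIs 51, and all 71 Vmn2r70 UMIs. All 16 wild-type Ccno UMIs and all 10 Pidd1 UMIs were likewise in 1 cell. Among genes lower in the transgenic cells and spread over cells, Washc1 was at 10.96 and 54.1 CPM (16 of 100 and 12 of 16 cells), Mfsd6 at 10.96 and 57.7 CPM and Cdc42ep3 at 13.0 and 68.6 CPM. S100a9, a neutrophil gene, was at 3.43 and 36.1 CPM, beside a neutrophil list sum of 6.85 and 68.6 CPM. Its part in the library difference was not tested.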

How the data were processed

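The deposited matrices hold UMI counts per gene and barcode, made by the authors with Cell Ranger 6.1.1 against GRCm39 per the submitters' processing notes, while the file headers name Cell Ranger 4; filters before deposit are not given in the sources used here. Barcodes listed were 2037787 (transgenic) and 1577106 (wild type), with 70572741 and 55701219 UMIs. No cell annotation or doublet removal was applied. Counts were summed over the cells of a class and library and written as CPM of all UMIs. A log2 ratio adds 1 UMI to each sum; its 95% interval is the conditional binomial one and covers counting error only, as do the exact binomial intervals of shares. A gene was measured with 20 CPM and 50 UMIs (transgenic) or 20 CPM and 10 UMIs (wild type) in either class. With 1 library per genotype nothing was tested, and 2-fold stands for a call. Ratios understate changes of genes with few UMIs.

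The members and gene lists were chosen with earlier results of these data known. Named were the 10 genes with the largest transgenic log2 ratio in each direction among those 2-fold the same way in the wild type, measured list genes, and the 10 receptors in most cells of each library; between libraries, the 10 whose interval lay beyond 2-fold. Receptors, mitochondrial, ribosomal, Xist, Y-linked and unnamed genes and those of the rule were left out of the ranked genes. This naming was applied to the Tex15 Lhx2 cells, a set drawn after the whole set proved mixed. Macrophage-type cells had 10 or more C1qa and C1qb UMIs, fibroblast-type cells 20 or more of Col1a1, Col1a2 and Dcn, both outside the neuronal classes. Receptors were called class I by MOR family numbers up to 42 in RefSeq synonyms (1079 of 1105 classed). Ratios and thinning were tested on simulated data. Python 3.11.15, numpy 2.4.6, scipy 1.17.1 and scanpy 1.11.5 were used. All files were used. Some genes that the naming rule selects are not reported here.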

Additional observations from a re-analysis of the deposited data

Results flagged for a closer look

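Of the 5 genes that lay 2-fold on opposite sides of Gap43-high cells in the 2 libraries, the 3 named in the text are given here; the difference between the libraries was not tested. Bfsp2 had a log2 ratio of Tex15 Lhx2 to Gap43-high cells of 1.61 in the transgenic library and -4.55 in the wild type, where 0 UMIs stood against 38. H2ac6 had 1.05 and -2.52, the latter from 1 UMI against 18. Vmn2r70 had 6.62 and -4.73, from 71 UMIs in 1 transgenic Tex15 Lhx2 cell and 43 in wild-type Gap43-high cells, with 0 in the other 2 classes. These fitted ratios depend on the 1 UMI added.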

How the results depend on the processing

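Of the counts and shares the text reports, 258 values under other settings stayed within 1.5 times or within the spread and 64 moved. For mean receptor numbers the spread was the SD over cells. That SD was larger than the mean in both sets and libraries, so no fall of these means could count as moved. Of the values of single genes 4816 stayed, 482 moved and 16 turned sign. A change of sign was counted only where the main ratio was 2-fold or more. The largest loss came with cells of 3 or more non-neuronal UMIs left out, which keeps 29 transgenic and 4 wild-type cells of either set, all of them Tex15 Lhx2 cells. Then 181 genes were higher and 79 lower than in INPs, 183 and 566 against Gap43-high cells, and 75 and 104 between libraries; the thinned receptor mean of the wild type over the whole rule was 3.5, and 10G4 was in 0% of wild-type cells. A mitochondrial limit of 5% kept 51 and 22 Tex15 cells, of which 45 and 10 were Tex15 Lhx2 cells. With it these had 315 genes higher and 95 lower than in INPs and 65 higher between libraries, the whole rule had 211 higher than in INPs, 191 higher than in Gap43-high cells and 547 lower between libraries, and 10G4 was in 0% of transgenic cells of both sets.

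A filter of 50 CPM and 100 (wild type 20) UMIs, which tests fewer genes, gave Tex15 Lhx2 cells 304 higher and 79 lower genes against INPs, 249 and 644 against Gap43-high cells and 40 and 59 between libraries. The whole rule had 754 and 380 against INPs, 671 higher than in Gap43-high cells and 169 and 138 between libraries. With no filter the Tex15 Lhx2 counts were 1762 and 2389, 3294 and 3069, and 575 and 4371, and those of the whole rule 2907 and 7684, 3618 and 5391, and 1907 and 2581. Averaging the CPM of each cell gave the whole rule 346 lower genes against INPs, 1208 against Gap43-high cells and 401 between libraries.

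Among settings chosen after seeing the data, no sustentacular limit gave 1086 genes higher than in INPs, 749 higher than in Gap43-high cells and 188 higher between libraries, and leaving out the Neurod1-high cells left 10 wild-type cells. With a receptor called at 2 or at 3 UMIs, 0% of Tex15 Lhx2 cells of both libraries had 10 or more, so that count rests on single UMIs. The sign changes counted, all of ratios at 2-fold or more in the main setting, were in log2 ratios of transgenic to wild-type cells. With Tex15 at 3 or more UMIs Cdkn1a was at 0.018 and Vmn2r70 at -2.39. With the mitochondrial limit Calb2 was at -0.26, Pam at -0.96, Stoml3 at -0.24 and Vmn2r70 at -1.96. Without cells of 3 or more non-neuronal UMIs Calb2 was at -2.14, Cdkn1a at 1.04, Coch at -1.49, Cyp2a5 at -0.16, Pam at -1.49, Stoml3 at -0.40 and Vmn2r70 at -2.49. Vmn2r70 was at -2.34 without the top 5% of Scrublet scores and with Lhx2 at 10 or more UMIs, and Stoml3 at -0.039 without Neurod1-high cells. Coch, Pam and Vmn2r70 rest on 1 cell each; for the others the cause was not tested.

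No paired analysis was possible because each genotype has 1 library. The 16 wild-type Tex15 Lhx2 cells and 5 INPs, the latter with 88059 UMIs in all, limit every wild-type ratio.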
